A study of Mus musculus with 2 samples.

Results

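The 47 genes described here encode homeodomain transcription factors of development that lie outside the 4 Hox clusters: the LIM homeobox genes (Lhx1 to Lhx9, Isl1, Isl2, Lmx1a and Lmx1b), the NK genes, regional genes of the brain and eye such as En1, Emx2 and Otx2, genes of the mesenchyme and face such as Alx1, Msx1 and Pitx1, and Cdx1, Cdx2, Meis1 and Meis2. They were taken from a list of names, and all 47 were found among the 22235 protein-coding genes of the annotation. The study compared CpG methylation between Dnmt1+/+ and Dnmt1-/- mouse embryonic fibroblasts (MEFs), grown in culture, by reduced-representation bisulfite sequencing, in which a cytosine that survives bisulfite treatment is read as methylated. Dnmt1 encodes the maintenance methyltransferase, which copies CpG methylation onto the new DNA strand. The Dnmt1-/- cells carry a hypomorphic allele (Dnmt1 n/n) on both chromosomes, so they are not full nulls, and the cells of both genotypes also lack trp53, the gene of the p53 protein. Each genotype had 1 library and no replicate. All differences below are thus differences between 2 libraries, with counting error only. No expression was measured in these libraries, so the fibroblast label could not be checked against marker genes, and a level between 0 and 100% can come from a mixture of cells or of alleles, which cannot be told apart here.

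Homeodomain factors bind DNA and set the identity of body regions, organs and neuron types, and most are silent in cells outside their own territory. Their start sites typically lie in wide CpG islands, stretches rich in CG dinucleotides that are usually free of DNA methylation, and in cells where the genes are silent these islands are classic sites of Polycomb repression, marked by H3K27me3. In most other genes the CpG-poor body is heavily methylated. Histone marks and RNA, which the study also measured, were not analysed here.

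Over the whole table, CpGs outside CCGG and TCGA averaged 45.0% in Dnmt1+/+ and 15.1% in Dnmt1-/-. CpGs within CCGG or TCGA, the sites that MspI and TaqI cut, averaged 82.8% and 57.1%. Because earlier results of these data showed raised values at those sites also in unmethylated sequence, the levels below use the remaining CpGs unless stated. The 47 genes held 4502 such CpGs, 2357 within 2 kb of the start of the gene (here called the promoter) and 2145 in the rest of the gene body. The start was the outermost one annotated for the gene, so other transcript starts can lie in the body. These CpGs were covered by 241796 calls in Dnmt1+/+ and 233240 in Dnmt1-/-, with a median depth of 40 and 37 calls per CpG. Where no call is methylated, such a depth still allows a level of up to 7.5% and 8.11%, and the minimum depth of 10 one of up to 30%.

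Stretches with the largest rises and falls among 500 bp regions with at least 10 CpGs are shown first, with 1 that was low in both libraries and without a Pitx1 region that overlaps a UTR, in the 5' to 3' direction of the gene and on the NCBIM37 build. Capitals mark the measured CpGs. The Alx1 stretch lies upstream of the gene (chr10:102492775-102492957, minus strand), and its 10 CpGs read 0 to 18.8% in Dnmt1+/+ and 30.8 to 100% in Dnmt1-/-. The Lhx6 stretch (chr2:35946848-35946950, minus strand) overlaps a coding exon, and its 10 CpGs averaged 24.5% and 53.1%. The Lhx2 stretch (chr2:38210136-38210415, plus strand) also overlaps a coding exon, with 17 CpGs at 9.40% and 33.5%. Falls are represented by the end of Lmx1b (chr2:33420207-33420263, minus strand, coding exon), with 6 CpGs at 89.7% and 22.4%, and by an intron of Meis1 (chr11:18915752-18916000, minus strand), with 12 CpGs at 51.6% and 1.02%. In the coding exon of Nkx2-3 (chr19:43689079-43689378, plus strand), 40 CpGs averaged 5.52% and 1.03%.
Alx1: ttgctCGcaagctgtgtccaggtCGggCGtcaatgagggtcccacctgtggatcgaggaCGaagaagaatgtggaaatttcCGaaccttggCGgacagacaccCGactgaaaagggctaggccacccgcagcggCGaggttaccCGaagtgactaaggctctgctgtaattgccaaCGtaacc
Lhx6: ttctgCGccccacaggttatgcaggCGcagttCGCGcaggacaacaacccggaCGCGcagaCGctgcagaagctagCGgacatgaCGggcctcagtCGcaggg
Lhx2: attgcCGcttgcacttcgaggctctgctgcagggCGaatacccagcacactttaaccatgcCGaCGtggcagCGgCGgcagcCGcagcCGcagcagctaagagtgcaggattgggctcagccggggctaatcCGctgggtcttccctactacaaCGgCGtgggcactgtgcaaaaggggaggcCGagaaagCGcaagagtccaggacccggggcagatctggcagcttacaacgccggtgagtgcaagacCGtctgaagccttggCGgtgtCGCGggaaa
Lmx1b: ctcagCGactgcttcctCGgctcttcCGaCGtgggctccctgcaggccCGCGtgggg
Meis1: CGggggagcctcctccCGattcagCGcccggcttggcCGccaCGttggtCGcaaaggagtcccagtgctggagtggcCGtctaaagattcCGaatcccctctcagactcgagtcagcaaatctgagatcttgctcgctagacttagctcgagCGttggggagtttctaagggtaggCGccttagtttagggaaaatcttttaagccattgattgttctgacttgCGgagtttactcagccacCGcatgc
Nkx2-3: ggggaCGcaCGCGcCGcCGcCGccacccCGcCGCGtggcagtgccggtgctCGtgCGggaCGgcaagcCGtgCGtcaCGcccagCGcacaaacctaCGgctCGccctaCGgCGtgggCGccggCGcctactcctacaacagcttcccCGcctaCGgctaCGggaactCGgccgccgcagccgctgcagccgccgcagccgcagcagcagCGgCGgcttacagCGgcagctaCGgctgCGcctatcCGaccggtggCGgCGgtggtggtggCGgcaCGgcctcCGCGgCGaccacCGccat
Every CpG of the Alx1 and Lmx1b stretches was called different between the libraries by the test described below, as were 7 of 10 in Lhx6, 9 of 17 in Lhx2 and 11 of 12 in Meis1. In Nkx2-3, 6 of 40 were called lower and none higher.

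The promoters of these genes were rich in CpGs. The window of 2 kb either side held a median of 167 CG dinucleotides, against 85 over all genes, and 44 of the 47 windows (93.6%) had at least 100, against 41.1% of all genes. The highest counts belonged to Nkx6-2 (298), Nkx6-1 (281) and Lmx1b (278), and the lowest to Prrx2 (65), Isl2 (70) and Nkx2-6 (77). At least 5 CpGs were measured in 46 promoters, with between 13 and 118 CpGs each. Prrx2 was left out, since its promoter had 1 CpG, at 97.3% in Dnmt1+/+ and 62.2% in Dnmt1-/-.

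Most homeobox promoters were nearly free of methylation in both libraries. The median promoter was at 7.93% in Dnmt1+/+ and 2.45% in Dnmt1-/-, while the median over all 13480 promoters with enough CpGs went from 4.85% to 1.51%. In Dnmt1+/+, 43 of the 46 promoters were at 20% or less. The difference between libraries stayed within 10 percentage points at 40 promoters, with values between -9.83 and 0.966 points. A promoter under 10% in Dnmt1+/+ could not fall by as much. On pooled calls, 36 promoters were lower and 2 higher with 95% Wilson intervals that did not overlap. Those intervals cover counting error only. A rise of at least 10 points was seen only at Alx1 and Pitx1, 2 of 46, against 0.579% of all promoters. Both were among the 43 at 20% or less in Dnmt1+/+, and 0.525% of all such promoters were higher. Lower by as much were Lhx3, Nkx2-5, Nkx2-6 and Otx2, 4 of 46, or 8.70%, against 23.4% of all promoters. By any amount, 42 promoters were lower and 4 higher, and over all 13480 promoters 11951 were lower and 1522 higher.

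**Figure D1:**
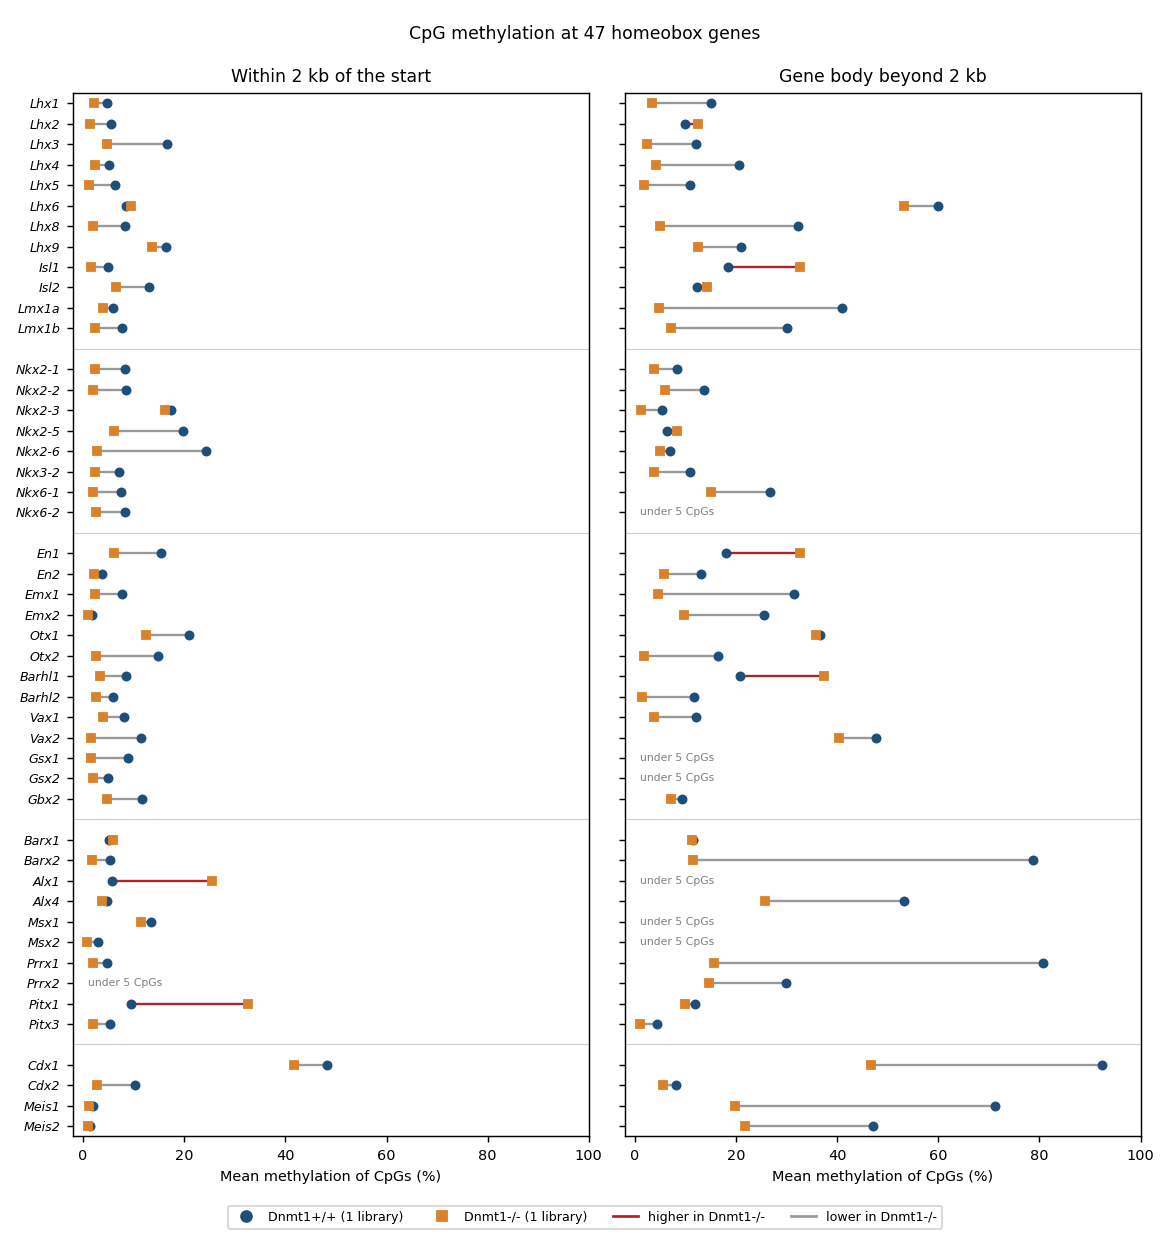
Mean methylation (x axis, percent) of each of the 47 homeobox genes (y axis) in Dnmt1+/+ (circles) and Dnmt1-/- (squares), within 2 kb of the start (left) and in the gene body beyond 2 kb (right); 1 library each, red lines join values that are higher in Dnmt1-/-. Promoters crowd near 0 apart from Cdx1, with long red lines at Alx1 and Pitx1, and bodies spread widely, with long grey lines at Barx2, Prrx1, Meis1 and Cdx1.

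Alx1, a gene of the craniofacial mesenchyme (chromosome 10, start at 102491685), had a promoter at 5.80% in Dnmt1+/+ and 25.5% in Dnmt1-/- over 43 CpGs. The pooled calls gave 6.80% (95% Wilson interval 5.73 to 8.07%, 1793 calls) and 19.5% (17.4 to 21.7%, 1316 calls), where the intervals, here and below, cover counting error only. With a depth of at least 20 the difference was 11.5 points over 30 CpGs. This gain was confined within the window to its upstream part. In the bin from -1.5 to -1.0 kb, 14 CpGs averaged 8.25% and 59.9%, and from -1.0 to -0.5 kb, 3 CpGs averaged 11.96% and 53.2%. The start itself was not part of it, as 12 CpGs in the first 500 bp of the gene averaged 1.76% and 1.64%. Fisher's exact test called 14 CpGs higher, from -1.36 to -0.74 kb, with adjusted p between 7.99e-10 and 0.0294, and 1 lower. A window of 1 kb either side therefore gave a difference of 4.67 points, and one of 500 bp 0.327 points.

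Pitx1, a gene of the hindlimb and pituitary (chromosome 13, start at 55937553), had the larger mean difference, from 9.55% to 32.7% over 39 CpGs. The pooled calls gave 9.32% (interval 8.25 to 10.5%, 2521 calls) and 34.5% (32.4 to 36.7%, 1892 calls). In contrast to Alx1, the gain spanned the start: 8 CpGs in the last 500 bp before it averaged 7.19% and 35.2%, and 24 CpGs in the first 500 bp after it averaged 7.15% and 28.4%. Of the 39 CpGs, 19 were called higher, from -1.14 to 0.23 kb, and 0 lower (smallest adjusted p 4.43e-17, Fisher's exact test). With promoters drawn around every annotated transcript start of Pitx1, 87 CpGs entered and the difference was 8.15 points. The gain thus describes the outermost start. Further in, 34 CpGs between 5.0 and 5.5 kb averaged 4.13% and 0.749%, with 0 called higher and 2 lower.

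Among the promoters that were lower, Nkx2-6, an NK gene of the pharynx and heart, went from 24.3% to 2.77% over 13 CpGs. Nkx2-5, an early regulator of heart development, went from 19.8% to 6.21% over 28 CpGs. Lhx3, required for the pituitary, went from 16.6% to 4.78% over 17 CpGs, and Otx2, required for the forebrain, from 14.8% to 2.52% over 16 CpGs. In all 4 of these promoters, no CpG exceeded 18.97% in Dnmt1-/-. The called CpGs lay on both sides of the start of Nkx2-6 (-0.1 to 0.42 kb), past the start in Nkx2-5 (0.35 to 1.8 kb) and Lhx3 (1.13 to 1.5 kb), and upstream in Otx2 (-1.69 to -1.41 kb). No CpG compared in Lhx3 or Otx2 lay within 1 kb of the start, so windows of 1 kb or 500 bp could not be read in these genes and left Nkx2-5 and Nkx2-6 as the lower promoters. Lhx3 was also within the limit, at -9.22 points, with a depth of at least 20, and Otx2, at -9.87 points, with CCGG and TCGA included.

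By group, the LIM genes had 12 promoters, of which 0 were higher and 1 (Lhx3) lower, with medians of 7.03% and 2.30%. Their best covered promoters, those of Lmx1b (100 CpGs, a gene of the dorsal limb) and Lmx1a (60 CpGs, a gene of the roof plate), went from 7.78% to 2.31% and from 5.84% to 3.90%. The 8 NK promoters had medians of 8.41% and 2.51%, with 0 higher and 2 lower. In this group Nkx6-2 went from 8.21% to 2.64% over 87 CpGs and Nkx3-2, a gene of the axial skeleton, from 7.05% to 2.27% over 82 CpGs. The 13 brain and eye genes had medians of 8.55% and 2.52%, with 0 higher and 1 lower. En2, a gene of the midbrain and hindbrain, had the most CpGs of any promoter (118) and went from 3.69% to 2.22%, while Gsx1, a gene of the ventral forebrain, went from 8.91% to 1.67% over 92 CpGs. The 9 measured promoters of mesenchymal and craniofacial genes had medians of 5.34% and 3.78%, and held both higher promoters. Here Alx4 went from 4.65% to 3.78% over 83 CpGs and Msx1 from 13.5% to 11.5% over 55 CpGs. Of the remaining 4 genes, Meis1 and Meis2, which encode partners of Hox proteins, were among the lowest promoters in Dnmt1+/+ at 1.95% and 1.42%. Cdx2, a regulator of the trophoblast and gut, went from 10.2% to 2.76% over 67 CpGs.

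Cdx1, a gene of the posterior axis, stood apart from the other promoters. It was at 48.2% in Dnmt1+/+ and 41.8% in Dnmt1-/- over 54 CpGs, the highest of the 46 in either library, although its window had 155 CG dinucleotides. The difference of -6.42 points was -10.1 on pooled calls, which would make it 1 more lower promoter. Both libraries ranged from low to high within it, with single CpGs of up to 98.1% and 92.6%. Fisher's exact test called 11 CpGs lower, between -0.02 and 0.48 kb, and 1 higher at 0.27 kb, from 62.3% to 82.0%.

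A few promoters within 10 points were mosaics of higher and lower CpGs. Nkx2-3, a gene of the gut and spleen, was at 17.4% and 16.3% over 34 CpGs, with 3 CpGs called higher and 5 lower. Its bin from -1.5 to -1.0 kb went from 15.4% to 29.2% over 6 CpGs, and the bin from -1.0 to -0.5 kb went from 58.5% to 37.3% over 3 CpGs. Msx1, a gene of limb and tooth mesenchyme, had 3 CpGs called higher between -2.0 and -1.19 kb, which averaged 41.3% and 88.4%, and 5 called lower between -0.14 and 1.75 kb, which averaged 30.6% and 0.0%. In Lhx6, a gene of cortical interneurons, 2 CpGs near 1.5 kb were called higher, with means of 22.1% and 56.1%, and 1 at 0.16 kb was called lower, from 10.4% to 0.0%. The promoter mean was 8.52% and 9.49%, or 7.77% and 6.79% on pooled calls. Lmx1a had 3 CpGs called higher between -0.64 and -0.46 kb, from a mean of 2.25% to 18.96%, and 3 called lower between -0.44 and 1.17 kb, from a mean of 16.4% to 3.33%.

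Methylation stayed low well beyond the promoter. In bins of 500 bp from 2 to 10 kb past the start, the mean over homeobox genes in Dnmt1+/+ lay between 17.3% and 43.6%, whereas over all genes it lay between 65.8% and 74.0%. At the start the profiles met: in the first 500 bp it was 8.41% for the homeobox genes and 12.4% for all genes. In Dnmt1-/- the corresponding bins past 2 kb lay between 7.44% and 24.9% for the homeobox genes and between 17.7% and 24.98% for all genes. The 2 sets of genes thus differed more in Dnmt1+/+ than in Dnmt1-/-, as a description of these profiles without a test.

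**Figure D2:**
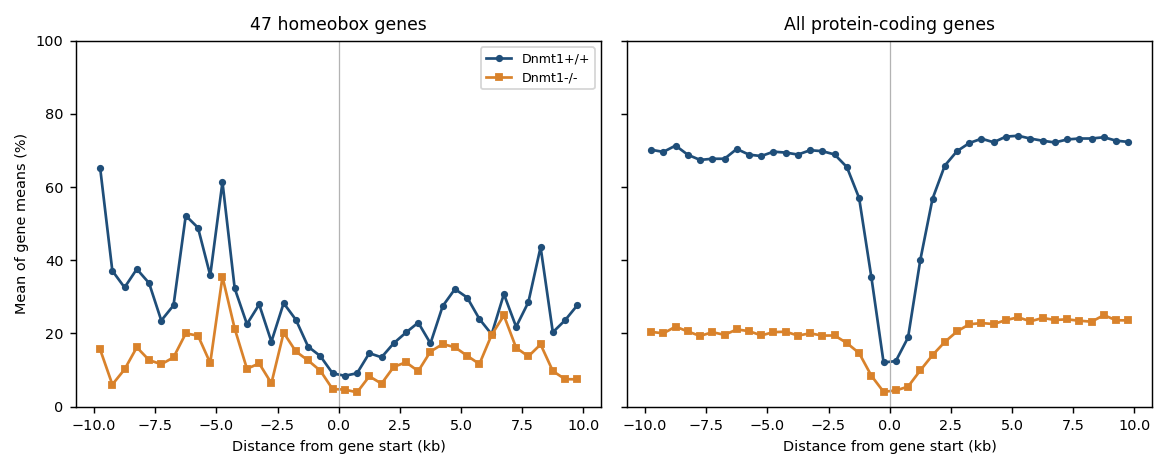
Mean methylation (y axis, percent; mean of gene means) in 500 bp bins by distance from the gene start (x axis, kb) for the 47 homeobox genes (left) and all protein-coding genes (right), Dnmt1+/+ as circles and Dnmt1-/- as squares. The dip in Dnmt1+/+ is narrow over all genes, which return above 65% beyond 2 kb, and broad over the homeobox genes, whose bins hold 6 to 35 genes each and vary more.

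Gene bodies could be measured in 41 of the 47 genes. Those of Nkx6-2, Msx2, Gsx1 and Gsx2 had 0 CpGs, that of Msx1 had 1 and that of Alx1 had 4. The median body was at 18.1% in Dnmt1+/+ and 8.34% in Dnmt1-/-, against 87.4% and 29.5% over 10903 genes. In Dnmt1+/+, 32 of the 41 bodies (78.0%) were at 40% or less, compared with 10.4% of all bodies. Barhl1, En1 and Isl1 had rises of 10 points or more, 3 of 41, against 0.349% of all bodies. All 3 were among the 32 bodies at 40% or less in Dnmt1+/+, and 2.91% of all such bodies were higher. Lower by as much were 17 of 41, or 41.5%, against 95.4% of all bodies. Of the 32 bodies at 40% or less in Dnmt1+/+, 10 were lower, while 59.4% of all such bodies were.

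Barhl1, a gene of the spinal cord, cerebellum and hair cells (chromosome 2, start at 28772188), had the largest rise of a body, from 20.9% to 37.4% over 56 CpGs. Its pooled calls gave 21.8% (interval 20.5 to 23.1%, 3716 calls) and 37.5% (35.8 to 39.2%, 3136 calls). Of these CpGs, 22 were called higher, from 4.5 to 8.11 kb, and 0 lower, with means of 20.5% and 51.1%. Its promoter went from 8.55% to 3.38%, with 7 CpGs called lower and 0 higher, and with every annotated start included its difference was 1.88 points. En1, a gene of the midbrain, hindbrain and ventral limb, went from 18.1% to 32.6% over 14 body CpGs, of which 1 was called. Isl1, a gene of motor neurons and heart progenitors, went from 18.5% to 32.8% over only 7 CpGs, of which 2 were called, at 4.23 and 4.28 kb. With CCGG and TCGA included, the Isl1 difference was 7.79 points, and over the whole span from start to end none of these 3 genes reached 10 points.

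The 4 largest falls were in bodies at 71.3% or more in Dnmt1+/+. Barx2, a gene of muscle and craniofacial tissue, went from 78.8% to 11.6%, and all 13 of its CpGs were called lower. Prrx1, a gene of limb mesenchyme, went from 80.7% to 15.8% over 6 CpGs, of which 4 were called lower. Meis1 went from 71.3% to 19.8% with 45 of 50 CpGs called lower, and the body of Cdx1 from 92.3% to 46.8% with 7 of 9. Lmx1a went from 41.0% to 4.84% and Lhx8, a gene of cholinergic forebrain neurons, from 32.3% to 5.06%. Alx4, a gene of limb and skull mesenchyme, went from 53.3% to 25.7%, and Emx1, a gene of the cortex, from 31.5% to 4.68%. The other 9 lower bodies were those of Meis2, Lmx1b, Lhx4, Emx2, Prrx2, Otx2, Nkx6-1, Lhx1 and Barhl2. They started between 11.6% and 47.1% in Dnmt1+/+ and ended between 1.53% and 21.8% in Dnmt1-/-. Some of these calls depended on the averaging: on pooled calls Prrx2 (-7.10 points), Lhx1 (-9.76) and Barhl2 (-9.97) were within 10 points, and so were Lhx1 (-9.50), Barhl2 (-7.65) and Nkx6-1 (-9.23) with CCGG and TCGA included. In Prrx2, the mean hid a contrast, since the median of its 108 CpGs was 2.14% in Dnmt1+/+ and 2.26% in Dnmt1-/-, and 28 CpGs averaging 89.7% were called lower, to a mean of 36.9%.

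Of the 21 bodies within 10 points, most were low in both libraries. Pitx3, a gene of lens and dopaminergic neurons, went from 4.46% to 1.08%, Nkx2-3 from 5.43% to 1.22%, and Gbx2, a gene of the anterior hindbrain, from 9.31% to 7.09%. Others kept intermediate or high methylation. The body of Lhx6 was at 60.0% and 53.2% over 56 CpGs, that of Vax2, a gene of the ventral retina, at 47.8% and 40.4% over 29 CpGs, and that of Otx1, a forebrain gene, at 36.7% and 35.8% over 46 CpGs. On pooled calls Vax2 differed by -11.2 points, past the limit. Each of these 3 means joined gains and losses at different CpGs: 7 higher and 11 lower in Lhx6, 3 and 7 in Vax2, and 3 and 4 in Otx1.

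At single CpGs, a two-sided Fisher's exact test, adjusted by the Benjamini-Hochberg method over the whole table, called 667 of the 4502 CpGs (14.8%) lower in Dnmt1-/-, against 44.2% of all CpGs, and 130 (2.89%) higher, against 0.635%. Neighbouring CpGs share reads, so these counts are not counts of independent events. Higher CpGs were found in 21 genes but unevenly, with 93 of the 130 in 5 genes. Barhl1 had 22 and Pitx1 19 in the promoter and 8 in the body. Lhx2, a gene of the eye and forebrain, had 16 in the body, Alx1 14 in the promoter, and Isl2, a gene of motor neurons, 14 in the body. Lower CpGs were found in 46 of the 47 genes. Gains and losses could lie side by side in 1 gene. In Isl2, 23 CpGs between 2.51 and 4.77 kb were called lower, with means of 30.0% and 9.02%, and the 14 higher ones lay between 5.42 and 7.02 kb, with means of 5.81% and 36.0%. In Lhx2, the 16 higher CpGs lay between 13.1 and 17.9 kb, with means of 10.7% and 37.3%. The 5 lower ones in its body lay between 11.27 and 28.06 kb, with means of 49.4% and 10.1%. In the body of Pitx1, the 8 higher CpGs lay between 2.2 and 11.02 kb and the 16 lower ones between 4.31 and 10.97 kb.

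**Figure D3:**
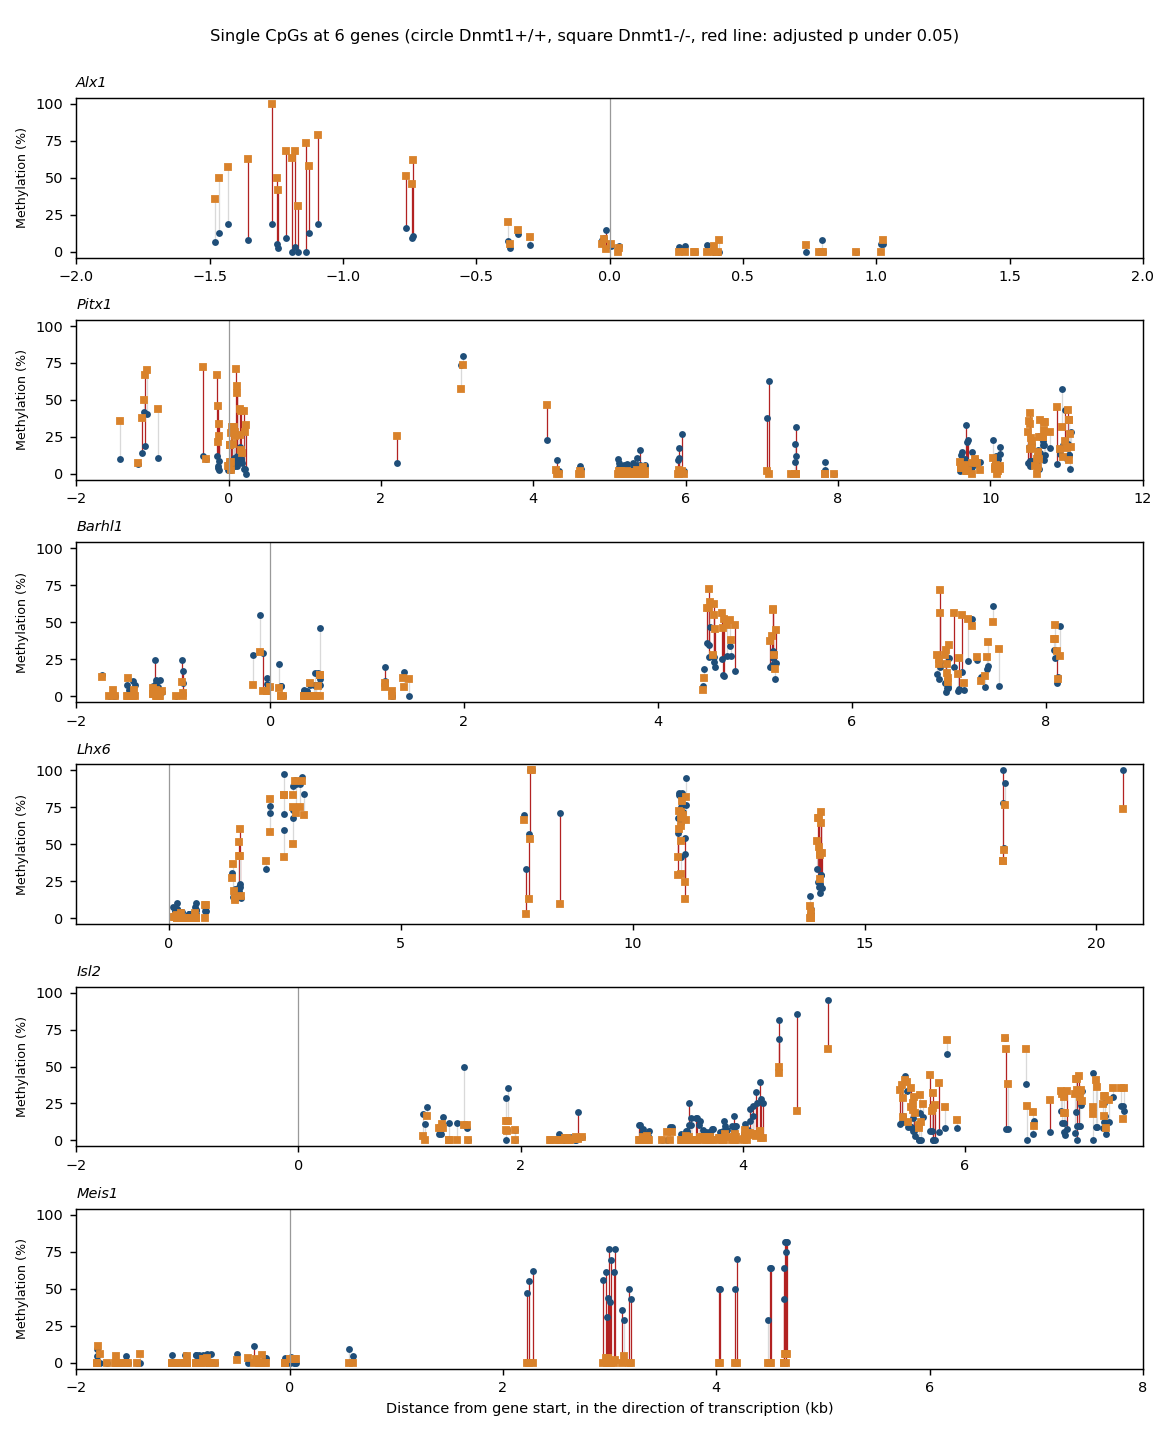
Methylation (y axis, percent) of single CpGs by distance from the gene start (x axis, kb) at 6 genes, circles for Dnmt1+/+ and squares for Dnmt1-/- (1 library each), with red lines where Fisher's exact test gave an adjusted p under 0.05. Alx1 gains upstream of the start, Pitx1 across it, Barhl1 beyond 4.5 kb, Lhx6 near 14.0 kb and Isl2 beyond 5.42 kb, whereas Meis1 is at 0 to 11.1% near the start and loses methylation from 2.23 kb on.

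The level in Dnmt1+/+ differed between these genes and the rest of the table. CpGs at 20% or less in Dnmt1+/+ made up 80.05% of the homeobox CpGs (3604), against 48.2% of all CpGs, and 96 of them (2.66%) were called higher, compared with 1.05% of all such CpGs. Only 243 homeobox CpGs were at 80% or more in Dnmt1+/+. They averaged 37.7% in Dnmt1-/-, against 32.0% for all CpGs of that class, and 192 of them (79.0%) were called lower, against 88.2%.

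The share of CpGs that gained or lost methylation also differed by local CpG density, counted as CG dinucleotides within 100 bp. Of the 130 higher CpGs, 81 had 10 to 19 neighbours, where 3.96% of homeobox CpGs were called higher against 1.14% of all CpGs. At 20 or more neighbours, 1.003% were called higher, close to the 0.992% of all CpGs. Losses were most frequent at low density: under 5 neighbours, 59.0% of 217 homeobox CpGs were called lower against 81.97% of all CpGs of that class, and their mean went from 60.6% to 19.7%. In the gene bodies, coding exons were at 16.0% and 10.2% over 778 CpGs, while those of all genes were at 74.55% and 32.7%. Of the 778 CpGs, 39 were called higher (5.01%, against 1.62% in coding exons of all genes) and 122 lower (15.7%, against 68.2%). Introns of these genes were at 29.7% and 13.3% over 1039 CpGs, while those of all genes were at 74.3% and 26.98%. Of the 1039 CpGs, 32 were called higher (3.08%, against 0.402%) and 300 lower (28.9%, against 69.4%).

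When the sequence from 10 kb before the start to 10 kb past it and the body were divided into 500 bp regions, 375 regions with at least 5 CpGs were found, covering all 47 genes. Of these, 274 (73.1%) were low in both libraries, at 20% or less, against 54.1% of all regions of the genome. Higher in Dnmt1-/- by at least 25 points were 4 regions (1.07%), against 0.397% of all regions, and 25 (6.67%) were lower, against 38.7%. On pooled calls 8 regions (2.13%) were higher, against 0.413% of all regions. The lower regions lay in 16 genes and the higher ones in 4.

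The higher regions are named here because they are few. The region around -1065 bp of Alx1 (chr10:102492501-102493000) went from 7.01% to 63.3% over 10 CpGs, of which 7 had a depth under 20 in Dnmt1-/-, and the one around -1928 bp of Msx1 (chr5:38217501-38218000) from 30.1% to 68.4% over 8 CpGs. In Lhx6, a coding-exon region about 14178 bp from the start (chr2:35946501-35947000) went from 24.5% to 53.1% over 10 CpGs. In Pitx1, the region at 303 bp (chr13:55937001-55937500), which overlaps the UTR, went from 7.76% to 36.0% over 15 CpGs. Among regions with at least 10 CpGs, the next largest rises were in coding-exon regions of Lhx2 (chr2:38210001-38210500, 8.60% to 31.9% over 19 CpGs) and Barhl1 (chr2:28767501-28768000, 24.6% to 47.4% over 13 CpGs). The regions that were higher only on pooled calls lay about -565 bp from the start of Alx1 (9.90% to 39.2%), -2428 bp from that of Msx1 (23.9% to 53.7%), 3993 bp into Vax2 (34.7% to 64.1%) and 4938 bp into Barhl1 (25.8% to 50.96%).

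Among regions with at least 10 CpGs, the 5 largest falls were in a coding exon of Lmx1b (chr2:33420001-33420500, 81.6% to 21.3%), an intron of Meis1 (chr11:18915501-18916000, 51.6% to 1.02%), sequence past the end of Nkx6-2 (chr7:146764001-146764500, 95.8% to 53.1%), and upstream of En1 (chr1:122496501-122497000, 79.1% to 40.2%) and Otx1 (chr11:21904501-21905000, 79.8% to 51.4%). The region past Nkx6-2 lies in another gene, Inpp5a. Upstream of En1, the losses reached into the promoter window, where 3 CpGs between -1.0 and -0.5 kb went from 70.5% to 13.9%, and stopped before the start, where 20 CpGs in the last 500 bp were at 2.70% and 0.991%. Thus 1 gene could lose methylation upstream while its body, in the case of En1, was higher.

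**Figure D4:**
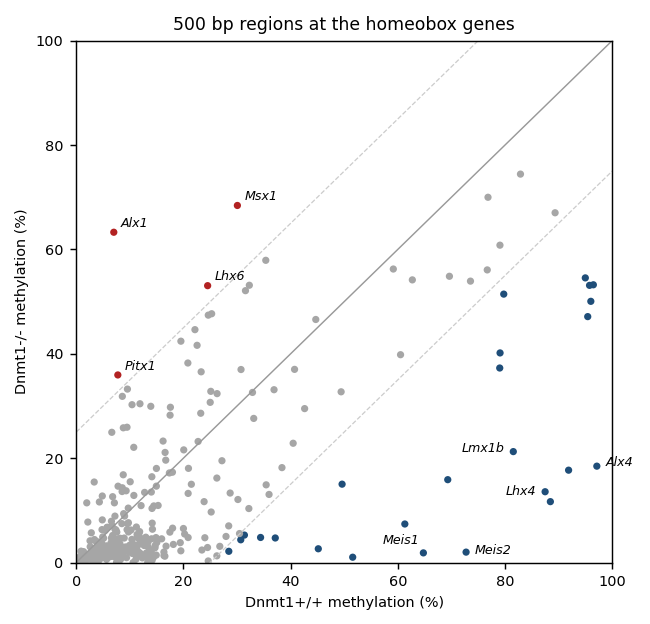
Methylation of the 375 regions of 500 bp in Dnmt1+/+ (x axis, percent) and Dnmt1-/- (y axis, percent); the solid line marks equal levels and the dashed lines a difference of 25 points, with 4 regions above (red, named) and 25 below (blue, 5 genes named). Most regions crowd in the lower left corner, low in both libraries.

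Paralogous genes, which arose by duplication and often act in related tissues, did not always pass the limit of 10 points together. For promoters, 1 member was past 10 points and the other within it in Alx1 and Alx4 (25.5% and 3.78% in Dnmt1-/-), Pitx1 and Pitx3 (32.7% and 1.958%), Lhx3 and Lhx4 (4.78% and 2.29%) and Otx2 and Otx1 (2.52% and 12.5%). In Dnmt1+/+ those promoters were at 5.80% and 4.65%, 9.55% and 5.34%, 16.6% and 5.10%, and 14.8% and 20.99%. On pooled calls Otx2 and Otx1 were at 17.4% and 12.3% in Dnmt1+/+, so their order depended on the averaging. Of these 4 pairs, the direction differed in Alx and Pitx, while both members were lower in Lhx3 and Lhx4 and in Otx1 and Otx2. For bodies, Barhl1 was higher while Barhl2 went from 11.6% to 1.53%, and En1 was higher while En2 went from 13.1% to 5.82%. Isl1 was higher while Isl2 was at 12.4% and 14.3%, or 11.7% and 10.6% on pooled calls, so that the direction of Isl2 depended on the averaging. Barx2 lost methylation while Barx1 was at 11.5% and 11.3%, and Cdx1 lost it while Cdx2 was at 8.16% and 5.62%. Lhx8 was lower while Lhx6 was within 10 points, and Otx2 differed by -14.6 points while Otx1 differed by -0.906 points, or 1.05 on pooled calls. In Lhx2 and Lhx9 (2.70 and -8.50 points) and in Nkx2-5 and Nkx2-6 (1.91 and -1.87 points) the bodies had opposite signs within the limit, but Lhx9 was past it on pooled calls (-13.2 points), and Nkx2-5 turned to -6.96 points over the whole gene span. The body of Lhx4 was lower, at 20.5% and 4.24%, and that of Lhx3 was within 10 points, at 12.1% and 2.52%. The Lhx1 body, at 15.1% and 3.46%, and the Lhx5 body, at 11.02% and 1.80%, lay on either side of the limit, with differences of -11.65 and -9.22 points, and changed sides on pooled calls, with -9.76 and -10.3 points. In both the Emx and the Meis pair, each body was lower.

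Other homeobox genes were read in the same way for comparison, without a test of the difference. Of 34 promoters of Hox cluster genes, 8 had a rise of 10 points or more and 4 a fall, and of 20 bodies 9 were higher and 1 lower. Of 40 promoters of a further list of homeobox genes outside the clusters, 2 were higher and 8 lower, and of 31 bodies 2 were higher and 17 lower. The median promoter of the 47 genes in Dnmt1-/- (2.45%) was below that of the Hox genes (7.55%), while in Dnmt1+/+ the medians were 7.93% and 9.69%. For the further list the medians were 3.48% in Dnmt1-/- and 9.49% in Dnmt1+/+. The median body difference was -8.29 points for the 47 genes, 6.44 points for the Hox genes and -11.83 points for the further list.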

How the data were processed

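Genomic DNA of 1 Dnmt1+/+ and 1 Dnmt1-/- MEF culture was analysed by RRBS at a sequencing provider. Per the labels, Bismark and the mm9 (NCBIM37) build were used; the version and the conversion rate are not given in the sources used here. In the deposited table, depth is the count of calls per CpG, kept by the authors where both libraries had at least 10, and the deposited percent is the methylated share of those calls. The table held 1790826 CpGs, 74636195 calls in Dnmt1+/+ and 78401157 in Dnmt1-/-, with a median depth of 29 and 30. Percent times depth was whole (100% of CpGs), which gave the methylated calls.

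Genes came from GENCODE vM1. Each CpG counted once in a mean. CCGG and TCGA CpGs were left out, promoters and bodies needed 5 CpGs, and 10 points (25 for 500 bp regions) counted as a difference. CpGs were compared by Fisher's exact test, adjusted over all CpGs (threshold 0.05), which compares libraries and not genotypes. It was checked on simulated data. The result of 1 further list is not reported here. The genes and lists were chosen with earlier results of these data known. Genes named in full were those past 10 points (up to the 8 largest each way), the 2 promoters with the most CpGs per group, and paralogs of which 1 differed; regions, the 5 largest rises and falls with at least 10 CpGs. Classes at 20% and 40% in Dnmt1+/+ were chosen after the data were seen. Intervals and limits at 0 calls (3 calls) cover counting error only. Alternatives were other depths, windows, thresholds, pooling and thinning. Scripts ran in python 3.11.15 with scipy 1.17.1, pandas 2.3.3, matplotlib 3.10.9, numba 0.67.0 and numpy 2.4.6.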

Additional observations from a re-analysis of the deposited data

How the results depend on the processing

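No paired analysis was possible because a single library stood for each genotype. No alternative tests the spread between cultures, and the depth limits single CpGs more than means. The 26 promoters and bodies past 10 points kept their direction in 211 of 211 alternative values. Of 771 alternative values for single genes, 620 stayed within counting error of the reported value and 151 moved. Both totals include the limits of 5 and 25 points and a minimum of 10 CpGs. Those settings change which genes are called but not the difference of a gene, so their values could not move. Among promoters and bodies not called, 18 values from 11 of them changed sign, all with a reported difference of 5.17 points or less. With pooled calls these were the promoters of Lhx6 (-0.974 points) and Lmx1a (0.0711) and the bodies of Isl2 (-1.07) and Otx1 (1.05).

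Promoters higher in Dnmt1-/- numbered 1 with windows of 1 kb (Pitx1), 1 with 500 bp (Pitx1) and 1 with any annotated start (Alx1), and 0 at 25 points. Promoters lower numbered 2 with windows of 1 kb and 2 with 500 bp (Nkx2-5 and Nkx2-6 in both, since Lhx3 and Otx2 had no CpG there), 0 at 25 points and 21 at 5 points. Bodies higher numbered 0 at 25 points and 0 over the whole gene span, where Barhl1 differed by 9.53 points, En1 by 2.42 and Isl1 by 3.56. Bodies lower numbered 9 at 25 points and 26 at 5 points. On pooled calls they were again 17, without Barhl2, Lhx1 and Prrx2 and with Lhx5, Lhx9 and Vax2; with CCGG and TCGA included they were 15, without Barhl2, Lhx1 and Nkx6-1. For the 500 bp regions, alternatives chosen after seeing the data gave 8 higher on pooled calls. They gave 60 lower with CCGG and TCGA included (512 regions) and 15 lower at a depth of at least 20 (294 regions). The shares of all regions of the genome that were lower at those settings were not computed. Higher CpGs numbered 81 and lower CpGs 398 when a difference of 25 points was also required. After thinning to 10 calls they numbered 9 and 152, with fewer calls per test. The shares of all CpGs at these settings were not computed, so the counts describe the homeobox genes alone. Narrower windows hold fewer CpGs, and the whole gene span adds the CpGs past the start to the body. A depth of at least 20 lowered the Alx1 promoter difference to 11.5 points and pooling of calls to 12.7 points; the cause was not tested.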

Other observations

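Upstream of Msx1, gains reached beyond the promoter window. Regions of 500 bp centred about -2428, -2928 and -4428 bp from the start went from 22.6% to 41.6% over 14 CpGs, from 13.9% to 29.9% over 16 CpGs and from 32.3% to 53.1% over 14 CpGs. On pooled calls their differences were 29.9, 9.20 and 13.99 points. The 2 regions at the start of Msx1 itself were at 4.40% and 1.29% over 27 CpGs and at 3.64% and 0.972% over 10 CpGs. In the flank of Alx4, by contrast, the region about -4790 bp from the start went from 97.2% to 18.5% over 6 CpGs, which was the largest fall among the 375 regions. The flank of Lhx8 about -9635 bp from its start went from 61.3% to 7.39% over 6 CpGs.

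Regions of these genes that were at 80% or more in Dnmt1+/+ were few, 12 of 375, and 10 of them (83.3%) were lower by at least 25 points in Dnmt1-/-, against 93.95% of the 15805 such regions of the genome. Their median level in Dnmt1-/- was 48.6%, against 33.0% for those of the genome, a difference that was not tested. The region that kept the most was a coding-exon region of Lhx6, about 2678 bp from the start, with 82.9% in Dnmt1+/+ and 74.4% in Dnmt1-/- over 11 CpGs. Lhx6 thus held a retained stretch, 2 stretches of gain near 1.5 and 14.0 kb, and 11 body CpGs called lower, within 1 gene.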
